A study of Homo sapiens with 6 samples.

Results

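The genes described here are 10 genes of T and NK lymphocytes, read in a myeloid leukemia cell line. They are GZMA, PRF1, NKG7 and CST7, which belong to the cytotoxic granule, KLRB1, an NK cell receptor, CD3D, TRDC and TRBC2, which belong to the T cell receptor complex, and CD7 and CD2, which are surface proteins of T and NK cells. They were chosen by name, with their levels in these libraries known, and are 10 of the 60612 gene IDs in each count table. All 10 passed the filter on low counts, which kept 15395 genes. Because measured values chose them, their levels and fold changes are a description and not independent evidence.

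RNA was measured in 6 libraries of KO52, an established acute myeloid leukemia line with mutations in both alleles of CEBPA, the gene of the myeloid transcription factor C/EBPα. Cells of every group carried a doxycycline-inducible lentiviral vector and were sorted for GFP after induction, and each group held 2 libraries. The dnCEBP vector encodes a dominant negative peptide that pairs with C/EBP family proteins, the dnFOS vector encodes one that pairs with AP-1 family proteins, and in either case the pair cannot bind DNA. The empty vector (EV) expresses GFP alone and is the control. The labels used here give no induction time, and nothing in them says that replicates came from separate cultures, so p-values measure the spread between these samples, which may be technical. The question of the comparisons with EV is what these genes do once C/EBP or AP-1 proteins are kept off the DNA.

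Cytotoxic T and NK cells kill by releasing granules in which perforin makes pores and granzymes, a family of serine proteases, enter the target cell. The T cell receptor is a pair of variable chains (alpha with beta, or gamma with delta), each joined to a constant region after gene segments recombine, and it reaches the surface only with the CD3 chains. CD7 is known as a surface antigen that blasts of some acute myeloid leukemias share with T and NK cells, and it is often seen in those with CEBPA mutations.

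Total counts ran from 9862994 to 27663179 per library and were lowest in dnFOS. A count of 3, used as the floor, was worth 0.111 to 0.290 CPM, the unit of counts relative to library size, here scaled by TMM. The abundant RNA RN7SL1 took 7.75% to 7.94% of counts in the EV and dnCEBP libraries, and 6.12% and 4.31% in dnFOS. The part of depth and of RN7SL1 in the dnFOS results was not tested.

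The label of T and NK cell genes was set beside cell type markers. Of 5 defining NK cell markers, NCR1, KLRF1 and EOMES were at 0 in every library and KLRD1 and GNLY did not pass 6 counts. Their summed level was 0.0740 to 0.483 CPM. Of 7 defining T cell markers (CD3E, CD3G, TRAC, CD8A, CD5, CD28 and BCL11B), 5 stayed at 10 counts or fewer in every library, and TRAC was the only one that passed the filter. Their summed level was 2.52 and 2.98 CPM in EV, 4.51 and 3.62 CPM in dnCEBP and 2.34 and 1.45 CPM in dnFOS. TRAC alone made up most of this sum in EV (1.97 and 1.97 CPM) and in dnCEBP (3.70 and 2.65 CPM). The higher sum in dnCEBP thus rests mostly on this gene, and whether the T cell markers moved as a set was not tested. TRAC itself did not pass in dnCEBP against EV (edgeR quasi-likelihood test, adjusted p = 0.411). Markers of myeloid progenitors summed to 1150 and 1067 CPM in EV, 913 and 814 CPM in dnCEBP and 1086 and 1032 CPM in dnFOS. All 8 of these, among them CD33, CD34 and MPO, passed the filter. The sums hide genes that moved in different directions. MPO went from 239 and 194 CPM in EV to 63.5 and 53.0 CPM in dnCEBP, and CD34 from 134 and 135 to 154 and 145 CPM. In dnFOS, CEBPA was higher than in EV (477 and 479 against 393 and 382 CPM) and ANPEP lower (127 and 115 against 187 and 176 CPM). The part of other cells in the results below was not tested. In bulk RNA, fewer cells that express a gene and less of its RNA per cell cannot be told apart.

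GZMA encodes granzyme A, a tryptase of the granzyme family (ENSG00000145649, chr5:55102648-55110252 on GRCh38, plus strand, a gene of 894 exonic bases). Its counts were 425 and 372 in EV, 1030 and 790 with dnCEBP, and 137 and 76 with dnFOS. These are 17.8 and 17.0 CPM in EV, 38.1 and 38.1 CPM in dnCEBP and 8.92 and 7.35 CPM in dnFOS. The 3 groups did not overlap, with dnCEBP the highest and dnFOS the lowest. The log2 fold change was 1.13 ± 0.13 (SE) in dnCEBP against EV (edgeR quasi-likelihood test, adjusted p = 4.63e-06) and -1.08 ± 0.15 in dnFOS against EV (adjusted p = 1.18e-05). Between the peptides, dnFOS was lower than dnCEBP by -2.21 ± 0.15 on the log2 scale (adjusted p = 4.87e-12). The closest protein-coding genes, GZMK before it and CDC20B after it, were at 0 in every library.

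The 250 bases before the RefSeq start of GZMA are shown because this gene had opposite changes under the 2 peptides, and the families they block have known binding letters. The window was searched on both strands for the AP-1 letters TGANTCA, the related CRE letters TGACGTCA, the C/EBP-AP-1 composite TGATGCAA, the C/EBP palindrome TTGCGCAA, a wider C/EBP form TTNCNNAA, which includes the palindrome, and the RUNX letters TGTGGT. Capitals mark the matches, first a wider C/EBP form 100 to 93 bases before the start and then the RUNX letters read on the other strand at 54 to 49 bases. The sequence is from RefSeq (GRCh38.p14, chr5:55102396-55102645, plus strand).
GZMA: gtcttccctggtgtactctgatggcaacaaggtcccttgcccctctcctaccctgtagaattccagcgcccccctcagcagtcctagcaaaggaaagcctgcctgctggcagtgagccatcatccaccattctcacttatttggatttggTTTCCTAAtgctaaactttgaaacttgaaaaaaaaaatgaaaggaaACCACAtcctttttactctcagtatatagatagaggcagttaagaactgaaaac
Of 35116 RefSeq windows of this length, 33.2% hold the wider C/EBP form and 11% the RUNX letters. The AP-1 letters stand in 6.57%, the CRE in 1.65%, the composite in 0.772% and the C/EBP palindrome in 0.131% of all windows, and none of these stands in the GZMA window.

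PRF1 encodes perforin (ENSG00000180644, chr10:70597348-70602775, minus strand). It had 766 and 617 counts in EV, 949 and 606 with dnCEBP and 531 and 351 with dnFOS, or 32.1 and 28.2 CPM, 35.1 and 29.3 CPM, and 34.6 and 33.9 CPM. The EV and dnCEBP libraries overlapped, and dnFOS lay just above EV. The log2 fold change was 0.09 ± 0.12 in dnCEBP and 0.18 ± 0.12 in dnFOS, and neither passed the test (adjusted p = 0.824 and 0.356). With a trend on GC content and length removed, the dnFOS value was 0.39 and passed (adjusted p = 0.0119).

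NKG7 encodes a granule membrane protein of NK and T cells (ENSG00000105374, chr19:51371606-51372715, minus strand). Its counts were 709 and 642 in EV, 642 and 515 with dnCEBP and 371 and 213 with dnFOS, or 29.7 and 29.4 CPM, 23.8 and 24.9 CPM, and 24.2 and 20.6 CPM. Both EV libraries lay above all others. The log2 fold change was -0.28 ± 0.12 in dnCEBP (adjusted p = 0.34) and -0.39 ± 0.13 in dnFOS (adjusted p = 0.0342). The dnFOS call was lost without EV replicate 1 (-0.39, adjusted p = 0.159), without EV replicate 2 (-0.42, adjusted p = 0.0937) and without dnFOS replicate 2 (-0.29, adjusted p = 0.284). It was also lost by limma-voom (adjusted p = 0.0509), and the value moved to -0.30 with library totals alone and to -0.18 with the GC and length trend removed.

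CST7 encodes cystatin F, an inhibitor of the cathepsins that activate granzymes (ENSG00000077984, chr20:24949230-24959928, plus strand). It was the most abundant of these 4 granule genes per length, with 3792 and 3164 counts in EV, 3512 and 2340 with dnCEBP and 1569 and 947 with dnFOS. These are 159 and 145 CPM, 130 and 113 CPM, and 102 and 91.6 CPM. The groups did not overlap and stood in the order EV, dnCEBP, dnFOS. CST7 fell in dnFOS with a log2 fold change of -0.65 ± 0.09 (adjusted p = 1.53e-05), a call made in every setting tried. The value in dnCEBP was -0.32 ± 0.09 (adjusted p = 0.0802), and it passed when only those 2 groups were fitted (-0.33, adjusted p = 0.0282), without dnCEBP replicate 1 (-0.43, adjusted p = 0.0344) and without dnFOS replicate 1 (adjusted p = 0.0207) or 2 (adjusted p = 0.0176). That of dnFOS against dnCEBP was -0.33 ± 0.09 (adjusted p = 0.0153), and the call was lost without dnCEBP replicate 1 (-0.22, adjusted p = 0.224) and without dnFOS replicate 2 (-0.25, adjusted p = 0.13). It was lost with library totals alone (-0.20, adjusted p = 0.127) and with the GC and length trend removed (-0.17, adjusted p = 0.141) too.

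**Figure D1:**
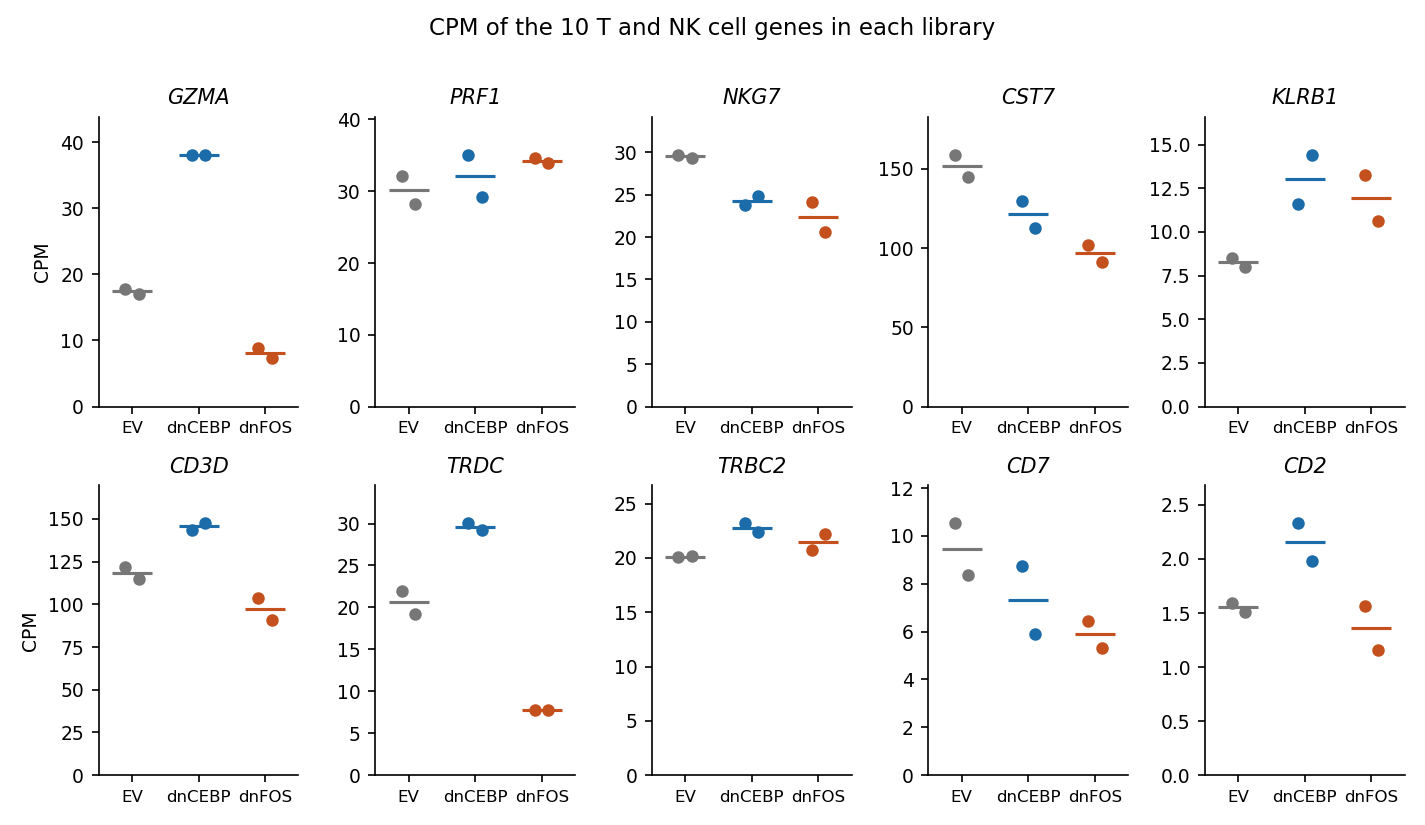
Level of each of the 10 genes in CPM on scaled library sizes, with each point a library, each bar the mean of the 2 libraries of a group and each panel its own axis from 0. GZMA, TRDC and CD3D are highest in dnCEBP and lowest in dnFOS with no overlap, at 38.1 against 8.92 and 7.35 CPM for GZMA. CD3D was not called in dnCEBP against EV, and PRF1 and TRBC2 stay within narrow ranges.

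KLRB1 encodes CD161, a lectin-like receptor of NK cells and of some T cells (ENSG00000111796, chr12:9594551-9607886, minus strand). It had 203 and 175 counts in EV, 314 and 299 with dnCEBP and 204 and 110 with dnFOS, or 8.52 and 8.01 CPM, 11.6 and 14.4 CPM, and 13.3 and 10.6 CPM. Both EV libraries were the lowest, and the peptide groups overlapped. The log2 fold change was 0.65 ± 0.17 in dnCEBP (adjusted p = 0.0617) and 0.54 ± 0.18 in dnFOS (adjusted p = 0.0402). KLRB1 was the only one of the 10 genes called higher in dnFOS than in EV. That call was lost without EV replicate 1 (0.59, adjusted p = 0.11), without EV replicate 2 (0.49, adjusted p = 0.168) and without dnFOS replicate 1 (0.36, adjusted p = 0.342). DESeq2 (adjusted p = 0.078), limma-voom (adjusted p = 0.0591) and removal of the GC and length trend (0.40, adjusted p = 0.121) did not make it either. In dnCEBP the value passed when only those 2 groups were fitted (0.65, adjusted p = 0.0463), without dnCEBP replicate 1 (0.80, adjusted p = 0.0285), without dnFOS replicate 1 (adjusted p = 0.0275), without dnFOS replicate 2 (adjusted p = 0.0244) and without a low-count filter (adjusted p = 0.0199). The gene AC092821.3 overlaps KLRB1 on the other strand and had 16 to 58 counts. Whether counting used strand is not given in the sources used here, so counts of overlapping genes are uncertain.

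CD3D encodes the delta chain of CD3, which pairs with CD3 epsilon (ENSG00000167286, chr11:118338954-118342744, minus strand, 929 exonic bases). It had 2911 and 2508 counts in EV, 3885 and 3056 with dnCEBP and 1595 and 938 with dnFOS. These are 122 and 115 CPM, 144 and 148 CPM, and 104 and 90.7 CPM, with no overlap between groups. CD3D was lower in dnFOS than in dnCEBP in every setting tried, with a log2 fold change of -0.58 ± 0.09 (adjusted p = 2.49e-05). Against EV it was 0.30 ± 0.09 in dnCEBP (adjusted p = 0.0962) and -0.28 ± 0.09 in dnFOS (adjusted p = 0.0287). The dnFOS call was lost without EV replicate 1 (-0.24, adjusted p = 0.242), without EV replicate 2 (-0.34, adjusted p = 0.0512), without dnFOS replicate 2 (-0.19, adjusted p = 0.288), and with library totals alone or the GC and length trend removed (-0.18 in both). The dnCEBP value passed when only the 2 groups were fitted (0.29, adjusted p = 0.0345) without dnFOS replicate 1 (adjusted p = 0.0312) or 2 (adjusted p = 0.0277) and with the GC and length trend removed (0.28, adjusted p = 0.048). The genes on either side encode the CD3 partners, and they were almost silent. CD3E had at most 4 counts and CD3G at most 7 in any library.

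Part of the window before the RefSeq start of CD3D is shown since its neighbours share the locus and not its level. It runs from 250 to 51 bases before the start (RefSeq, GRCh38.p14, chr11:118342756-118342955, minus strand), and capitals mark the RUNX letters at 200 to 195 bases.
CD3D: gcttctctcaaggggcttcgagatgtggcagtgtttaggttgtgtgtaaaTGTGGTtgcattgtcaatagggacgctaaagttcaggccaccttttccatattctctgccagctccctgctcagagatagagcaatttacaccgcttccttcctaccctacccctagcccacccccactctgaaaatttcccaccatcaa
RefSeq windows were found for 6 of the 10 genes, GZMA, PRF1, NKG7, KLRB1, CD3D and CD2. The wider C/EBP form stood in 3 of them (GZMA, KLRB1 and CD2) and the RUNX letters in 3 (GZMA, PRF1 and CD3D), at 62 to 57 bases before the start of PRF1. The KLRB1 window held the wider form at 170 to 163 and at 146 to 139 bases, and the CD2 window at 134 to 127. The AP-1, CRE, composite and palindrome letters stood in none of the 6, and NKG7 had no match. A match or its lack describes letters in this window only.

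TRDC is the constant region of the T cell receptor delta chain (ENSG00000211829, chr14:22462932-22465787, plus strand, 720 exonic bases). It had 524 and 421 counts in EV, 812 and 606 with dnCEBP and 119 and 80 with dnFOS, or 22.0 and 19.3 CPM, 30.0 and 29.3 CPM, and 7.75 and 7.73 CPM. The groups did not overlap and stood in the same order as for GZMA. TRDC fell in dnFOS with a log2 fold change of -1.41 ± 0.15 (adjusted p = 1.7e-07), and was lower in dnFOS than in dnCEBP by -1.94 ± 0.15 (adjusted p = 1.54e-10). Both calls were made in every setting. The value in dnCEBP against EV was 0.52 ± 0.13 (adjusted p = 0.0359), and that call was lost without EV replicate 1 (0.62, adjusted p = 0.0867), EV replicate 2 (0.43, adjusted p = 0.342), dnCEBP replicate 1 (0.50, adjusted p = 0.111) or dnCEBP replicate 2 (0.54, adjusted p = 0.266). DESeq2 (adjusted p = 0.061), library totals alone (adjusted p = 0.0697) and removal of the GC and length trend (0.43, adjusted p = 0.0644) lost it as well.

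The noncoding gene AC244502.1 runs across TRDC on the opposite strand, so reads of the pair may be mixed. It had 1081 and 1076 counts in EV, 1224 and 927 with dnCEBP and 552 and 356 with dnFOS. Its log2 fold change was -0.07 ± 0.10 in dnCEBP (adjusted p = 0.853) and -0.43 ± 0.11 in dnFOS (adjusted p = 0.0074), in both cases nearer to 0 than that of TRDC. This gene was named after its values were seen.

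TRBC2 is a constant region of the beta chain (ENSG00000211772, chr7:142801041-142802748, plus strand). It had 479 and 440 counts in EV, 627 and 463 with dnCEBP and 318 and 230 with dnFOS, or 20.1 and 20.1 CPM, 23.2 and 22.3 CPM, and 20.7 and 22.2 CPM. The spread over all 6 libraries was small. The log2 fold changes were 0.18 ± 0.13 in dnCEBP (adjusted p = 0.615), 0.09 ± 0.13 in dnFOS (adjusted p = 0.711) and -0.09 ± 0.13 between the peptides (adjusted p = 0.723). TRBC1, a near-identical copy, had 3 to 9 counts, and reads shared by the copies could be split between them, so both are uncertain.

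The rest of the receptor complex was uneven. Its list held 10 genes, of which 7 were tested, and apart from CD3D, TRDC and TRBC2 these were CD247, TRAC, TRGC1 and TRGC2. TRAC, the alpha constant region, had 47 and 43 counts in EV, 100 and 55 with dnCEBP and 22 and 5 with dnFOS. It was lower in dnFOS than in dnCEBP by -1.64 ± 0.40 on the log2 scale (adjusted p = 0.00518), a call lost without dnCEBP replicate 1 (-1.38, adjusted p = 0.0911) or dnFOS replicate 2 (-1.16, adjusted p = 0.104). The gamma constant regions TRGC1 (260 to 671 counts) and TRGC2 (65 to 276 counts), another pair of near-identical copies, passed no test. CD247, the zeta chain that carries the signal inward, had 0 to 22 counts.

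Constant regions had more counts than variable segments. All 6 annotated constant regions had a count, and together they held 2006 and 1645 counts in EV, 2366 and 1847 with dnCEBP and 919 and 644 with dnFOS. Of 106 variable segments, 24 had a count and 4 had more than 10 in any library, and their sum ran from 54 to 140 counts per library. The variable segments with the most counts were TRBV27 (24 to 58) and TRGV9 (19 to 53). Of 79 joining segments, 22 had a count, and TRGJP1 led with 30 to 98. Of the recombination genes, RAG2 had at most 2 counts and DNTT none, and PTCRA, the pre-T cell receptor alpha chain, had none. RAG1, a subunit of the recombinase, had 76 and 63 counts in EV, 112 and 76 with dnCEBP and 70 and 66 with dnFOS. RAG1 rose in dnFOS by 0.83 ± 0.26 on the log2 scale (adjusted p = 0.0308). That call was lost without EV replicate 1 (0.90, adjusted p = 0.0851), EV replicate 2 (0.74, adjusted p = 0.134) or dnFOS replicate 2 (0.58, adjusted p = 0.337), and by DESeq2, limma-voom or removal of the GC and length trend (adjusted p = 0.0589 to 0.0671).

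**Figure D2:**
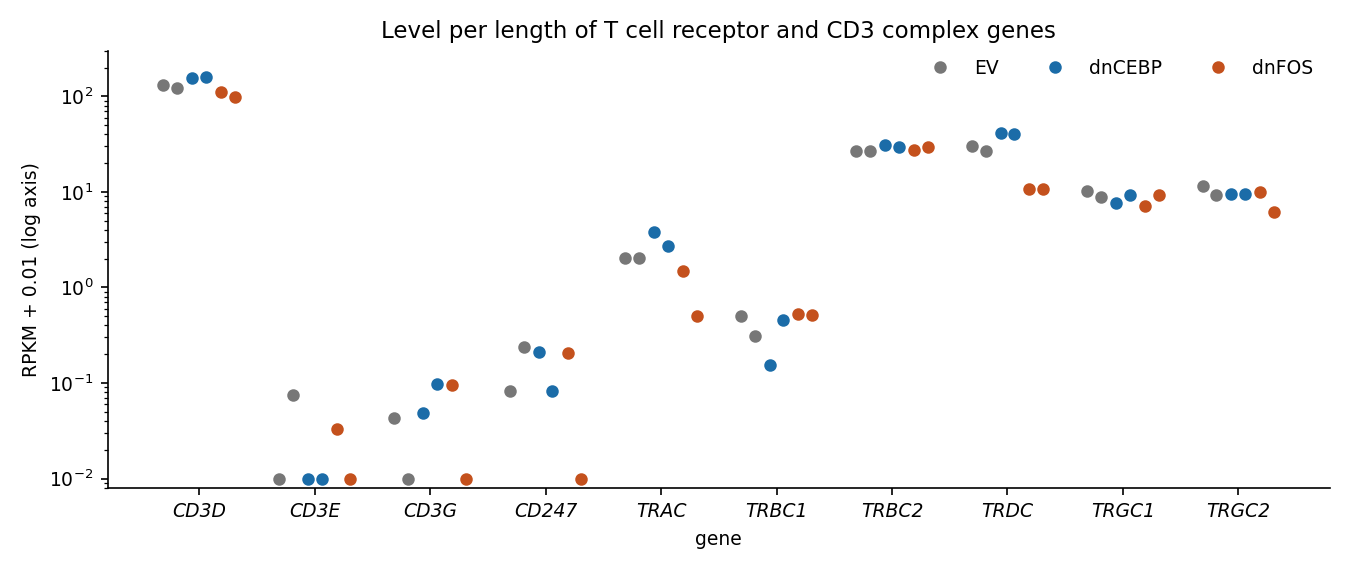
Level per length (RPKM, CPM divided by exonic length in kilobases, plus 0.01, on a log axis) of the 10 genes of the T cell receptor and CD3 complex, with a point for each library coloured by group. CD3D stands far above CD3E, CD3G and CD247, TRBC2 above TRBC1, and TRDC is lowest in the dnFOS libraries, while points at the foot of the axis are libraries with 0 counts.

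CD7, an immunoglobulin family surface protein of T and NK cells and their precursors (ENSG00000173762, chr17:82314868-82317602, minus strand), had 251 and 183 counts in EV, 236 and 122 with dnCEBP and 99 and 55 with dnFOS. These are 10.5 and 8.38 CPM, 8.73 and 5.89 CPM, and 6.45 and 5.32 CPM. EV and dnCEBP overlapped, and dnFOS lay below EV. In the fit, the log2 fold change was -0.67 ± 0.22 in dnFOS (adjusted p = 0.0363) and -0.36 ± 0.20 in dnCEBP (adjusted p = 0.502). The dnFOS call was lost without EV replicate 1 (-0.50, adjusted p = 0.279) or dnFOS replicate 2 (-0.55, adjusted p = 0.222), by DESeq2 (adjusted p = 0.0708), limma-voom (adjusted p = 0.0781) and library totals alone (adjusted p = 0.0887), and the value was -0.36 with the GC and length trend removed (adjusted p = 0.242).

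CD2, the adhesion receptor for CD58 (ENSG00000116824, chr1:116754385-116769228, plus strand), was the lowest of the 10 genes. It had 38 and 33 counts in EV, 63 and 41 with dnCEBP and 24 and 12 with dnFOS, or 1.59 and 1.51 CPM, 2.33 and 1.98 CPM, and 1.56 and 1.16 CPM. Its log2 fold changes were 0.48 ± 0.35 in dnCEBP (adjusted p = 0.644) and -0.17 ± 0.40 in dnFOS (adjusted p = 0.833), with SEs too wide at this depth to separate a change from none.

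Per length, the 10 genes fell into a wide range of levels. In EV the mean RPKM was 163 ± 10.8 (SD, n = 2) for CST7, 128 ± 5.56 for CD3D, 31.6 ± 0.267 for NKG7, 28.7 ± 2.66 for TRDC and 26.5 ± 0.0449 for TRBC2. GZMA followed with 19.5 ± 0.632, then PRF1 with 11.9 ± 1.09, KLRB1 with 5.71 ± 0.247, CD7 with 3.46 ± 0.556 and CD2 with 0.925 ± 0.0351. TRDC and TRBC2 differed by less than the SD of TRDC. In dnCEBP the RPKM of GZMA was 42.6 ± 0.0168 and that of TRDC 41.2 ± 0.780, above TRBC2 (30.0 ± 0.794) and NKG7 (26.0 ± 0.835). In dnFOS GZMA (9.10 ± 1.24) and TRDC (10.8 ± 0.0138) lay below PRF1 (13.5 ± 0.179), and GZMA and KLRB1 (8.26 ± 1.29) differed by less than their SDs. CD3D (105 ± 10.0) and CST7 (104 ± 8.07) could not be separated there.

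Counted together, 2 of the 10 genes passed the test in dnCEBP against EV, GZMA and TRDC, both higher. Of all genes tested, 1.07% were called in that comparison, 0.624% higher and 0.448% lower. In dnFOS against EV 7 genes passed, with KLRB1 higher and GZMA, NKG7, CST7, CD3D, TRDC and CD7 lower. The share of all genes was 15%, with 7.24% higher and 7.76% lower. In dnFOS against dnCEBP 4 genes passed, GZMA, CST7, CD3D and TRDC, all lower, where the share of all genes was 14.7%, with 6.83% higher and 7.84% lower. The genes were picked with these results known, so nothing is read from these counts. The median log2 fold change of the 10 genes was 0.24, -0.34 and -0.32 in the 3 comparisons in this order, and that of all genes tested 0.00, 0.00 and 0.02. The comparisons with EV share the EV libraries.

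**Figure D3:**
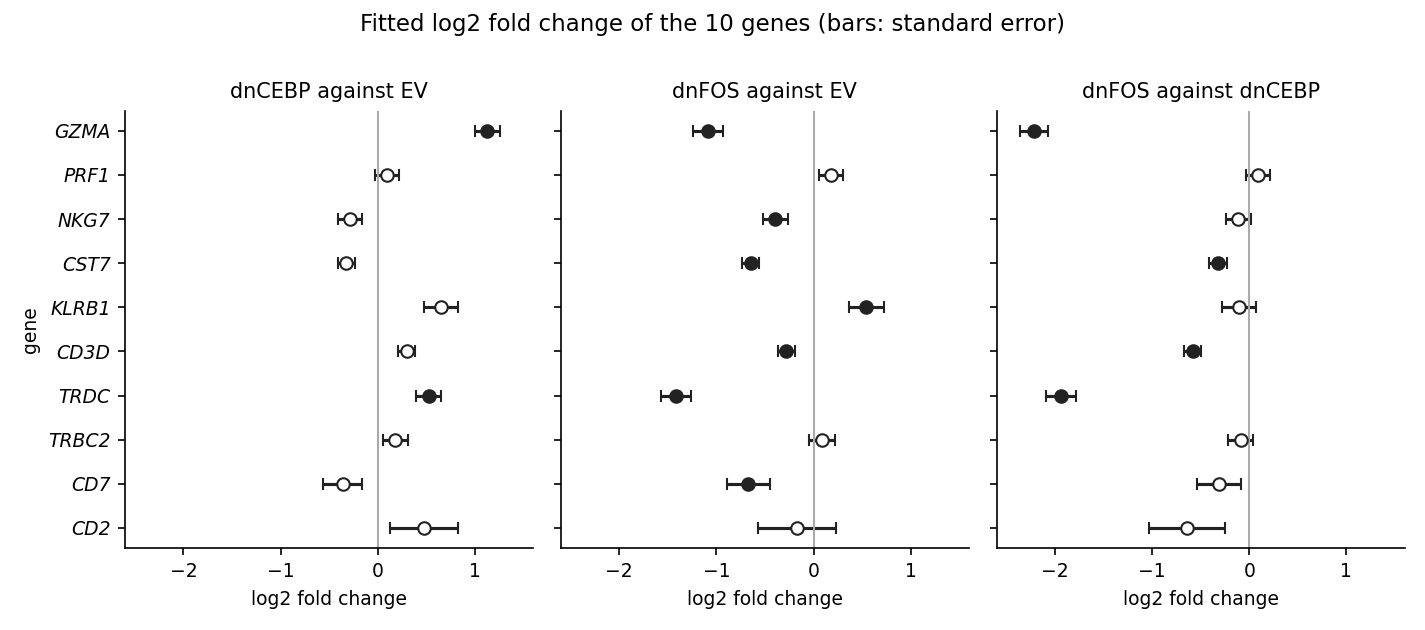
Fitted log2 fold change of the 10 genes in each comparison, with bars of 1 SE; filled points passed the test at an adjusted p under 0.05. In dnFOS against dnCEBP, GZMA (-2.21) and TRDC (-1.94) lie furthest from 0, and PRF1 and TRBC2 lie near 0 in every panel.

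Other genes of the same pathways were taken from 9 lists of granule, receptor, signalling, transcription factor and cytokine receptor genes, which held 86 genes besides the 10. Of these, 53 passed the filter and 33 did not. In dnCEBP against EV 4 passed the test (7.55% of those tested), 3 higher and 1 lower, where the share of all genes was 1.07%. In dnFOS against EV 16 passed (30.2%), 2 higher and 14 lower, where that share was 15%. In dnFOS against dnCEBP 21 passed (39.6%), 3 higher and 18 lower, where it was 14.7%. The lists were chosen with earlier results known, so nothing is read from these counts. The median log2 fold changes of these list genes were 0.09, -0.21 and -0.28, beside the medians of all genes given above.

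In the granule list, GZMA was the only granzyme that passed the filter. GZMB had at most 2 counts, GZMM at most 8, and GZMH and GZMK none. Serglycin (SRGN), the proteoglycan that holds granule proteins, had 246 and 236 CPM in EV, 225 and 243 CPM in dnCEBP and 153 and 173 CPM in dnFOS. It fell in dnFOS by -0.57 ± 0.09 on the log2 scale (adjusted p = 4.83e-05), with a value in dnCEBP that did not pass (-0.05 ± 0.09, adjusted p = 0.89). Cathepsin W (CTSW), a lymphocyte protease, had 91.4 and 86.1 CPM in EV, 114 and 107 CPM in dnCEBP and 67.7 and 57.4 CPM in dnFOS. It fell in dnFOS (-0.50 ± 0.09, adjusted p = 0.000456), with a value of 0.31 ± 0.09 in dnCEBP (adjusted p = 0.0885), though FIBP overlaps it on the other strand. CTSC, which activates granzymes, did not pass in any comparison (0.08 ± 0.08 in dnFOS, adjusted p = 0.603).

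All 6 genes of granule secretion were tested. RAB27A, the GTPase that docks granules, had 179 and 191 counts in EV, 133 and 76 with dnCEBP and 130 and 76 with dnFOS. PIGB on the other strand (at most 624 counts) and PIGBOS1 on the same strand (at most 186 counts) overlap RAB27A and leave its counts uncertain. AC008763.1 overlaps STXBP2, also of this list, on the other strand (at most 115 counts). RAB27A fell in dnCEBP by -0.91 ± 0.21 (adjusted p = 0.0216). That call was lost without EV replicate 2 (-0.80, adjusted p = 0.189) or dnCEBP replicate 2 (-0.72, adjusted p = 0.394). The other calls of this list were STXBP2 in dnFOS against EV (-0.58, adjusted p = 0.0154) and, in dnFOS against dnCEBP, STX11 (-0.76, adjusted p = 0.0394), LYST (0.46, adjusted p = 0.037) and RAB27A (0.88, adjusted p = 0.00599). Each was lost when some libraries were left out. For STXBP2 these were EV replicate 1 (adjusted p = 0.0732) and dnFOS replicate 2 (adjusted p = 0.23), and the call was also lost with library totals alone (adjusted p = 0.0533) and with the GC and length trend removed (-0.32, adjusted p = 0.154). For RAB27A they were dnCEBP replicate 2 (adjusted p = 0.0723) and dnFOS replicate 1 (adjusted p = 0.0658). For STX11 any of the 4 did so (adjusted p = 0.101 to 0.217), and for LYST any but dnFOS replicate 1 (adjusted p = 0.108 to 0.317). DESeq2, limma-voom and removal of the GC and length trend lost the STX11 (adjusted p = 0.0535 to 0.0904) and LYST (adjusted p = 0.0524 to 0.0803) calls as well. UNC13D, which primes granules for release and was the most abundant gene of the list at 115 to 154 CPM, and VAMP8 (104 to 135 CPM) passed in no comparison.

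Among co-receptors and proximal signalling genes, CD4, which monocytic cells express as well as helper T cells, fell in dnFOS from 44.4 and 42.3 CPM to 31.1 and 26.9 CPM (-0.58 ± 0.11, adjusted p = 0.000853). PTPRC, the phosphatase CD45 of all leukocytes and the most abundant gene of the list, had 401 and 398 CPM in EV, 470 and 512 CPM in dnCEBP and 313 and 321 CPM in dnFOS. It fell in dnFOS by -0.33 ± 0.08 (adjusted p = 0.00663), a call lost without EV replicate 1 (-0.33, adjusted p = 0.0829). The adaptor LAT had 9 and 18 counts in EV, 15 and 15 with dnCEBP and 0 in both dnFOS libraries. Against a floor of 3 counts per library, LAT was at least 2.48-fold lower in dnFOS than the EV mean (adjusted p = 0.0109). This bound leaves out the spread of EV, which was 0.378 and 0.824 CPM. The call was lost without EV replicate 2 or either dnFOS library. The gene AC109460.3 overlaps LAT on the same strand with at most 12 counts, so the counts of LAT are uncertain. The adaptor LCP2 was lower in dnFOS than in dnCEBP by -0.28 ± 0.09 (adjusted p = 0.0326), a call lost without either dnCEBP library (adjusted p = 0.0567 and 0.196) or dnFOS replicate 1 (adjusted p = 0.217) and with library totals alone (adjusted p = 0.215). LCK and CD8A did not pass the filter, and the kinases SYK, FYN and ZAP70 passed no test.

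Of the NK receptors and adaptors other than KLRB1, 9 of 16 were tested. CD226, the activating receptor DNAM-1, had 286 and 253 counts in EV, 638 and 492 with dnCEBP and 192 and 157 with dnFOS. CD226 rose in dnCEBP by 1.01 ± 0.14 (adjusted p = 0.000152), a call made in every setting, and its value in dnFOS was 0.22 ± 0.15 (adjusted p = 0.379). Of the adaptors that carry activating signals, HCST (DAP10), the most abundant of this list, had 97.4 and 85.7 CPM in EV, 96.5 and 85.1 CPM in dnCEBP and 61.2 and 53.8 CPM in dnFOS. HCST fell in dnFOS by -0.67 ± 0.10 (adjusted p = 2.41e-05), and so did TYROBP (DAP12) by -0.45 ± 0.10 (adjusted p = 0.00339) and FCER1G by -0.88 ± 0.22 (adjusted p = 0.00539). The TYROBP call was lost without EV replicate 1 (adjusted p = 0.05, just above the threshold) and with the GC and length trend removed (-0.23, adjusted p = 0.0931), and the FCER1G call without EV replicate 2 (adjusted p = 0.0537) or dnFOS replicate 2 (adjusted p = 0.108). CD244, the receptor 2B4, fell in dnFOS by -0.41 ± 0.09 (adjusted p = 0.00219). KLRG1, an inhibitory receptor, was lower in dnFOS than in dnCEBP by -0.63 ± 0.15 (adjusted p = 0.00366), lost without dnFOS replicate 1 (-0.40, adjusted p = 0.119). These adaptors and CD244 are expressed by myeloid cells too.

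In the list of pan-T surface proteins, CD52 followed the order dnCEBP, EV, dnFOS. CD52, a small glycoprotein of lymphocytes and monocytes, had 158 and 150 CPM in EV, 202 and 219 CPM in dnCEBP and 93.8 and 88.1 CPM in dnFOS. In the fit, the log2 fold change was 0.45 ± 0.08 in dnCEBP (adjusted p = 0.00396), -0.76 ± 0.09 in dnFOS (adjusted p = 4.34e-07) and -1.21 ± 0.09 between the peptides (adjusted p = 2.62e-11). The dnCEBP call was lost without EV replicate 2 (0.41, adjusted p = 0.12) or dnCEBP replicate 2 (0.39, adjusted p = 0.124), and UBXN11 overlaps CD52 on the other strand. CD96, the most abundant of this list at 231 to 275 CPM, passed in no comparison (-0.02 ± 0.08 in dnFOS, adjusted p = 0.926). CD58, the ligand of CD2, and CLEC2D, the ligand of CD161, passed in none either.

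The T and NK cell transcription factors differed widely in level. TBX21, EOMES, GATA3, TCF7, LEF1 and BCL11B had at most 10 counts, while RUNX3 (31.9 to 39.6 CPM), TOX (50.6 to 65.4 CPM) and NOTCH1 (18.8 to 38.1 CPM) passed the filter and were called in no comparison. Of the 16 factors 9 were tested. IKZF1 (Ikaros), the most abundant of them, rose in dnFOS from 165 and 154 CPM to 212 and 211 CPM (0.40 ± 0.08, adjusted p = 0.0014), a call lost without EV replicate 2 (0.34, adjusted p = 0.0513). NFIL3, a bZIP factor needed for NK cell development, fell in dnFOS from 25.7 and 24.9 CPM to 16.6 and 14.3 CPM (-0.70 ± 0.14, adjusted p = 0.000852). Neither passed in dnCEBP (0.00 ± 0.08, adjusted p = 0.99, and -0.08 ± 0.13, adjusted p = 0.864). Of 6 cytokine receptor genes, IL2RG, the common gamma chain and the most abundant, fell in dnFOS (-0.33 ± 0.09, adjusted p = 0.0155), a call lost without any EV or dnFOS library (adjusted p = 0.0533 to 0.129) and with library totals alone (adjusted p = 0.0818).

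**Figure D4:**
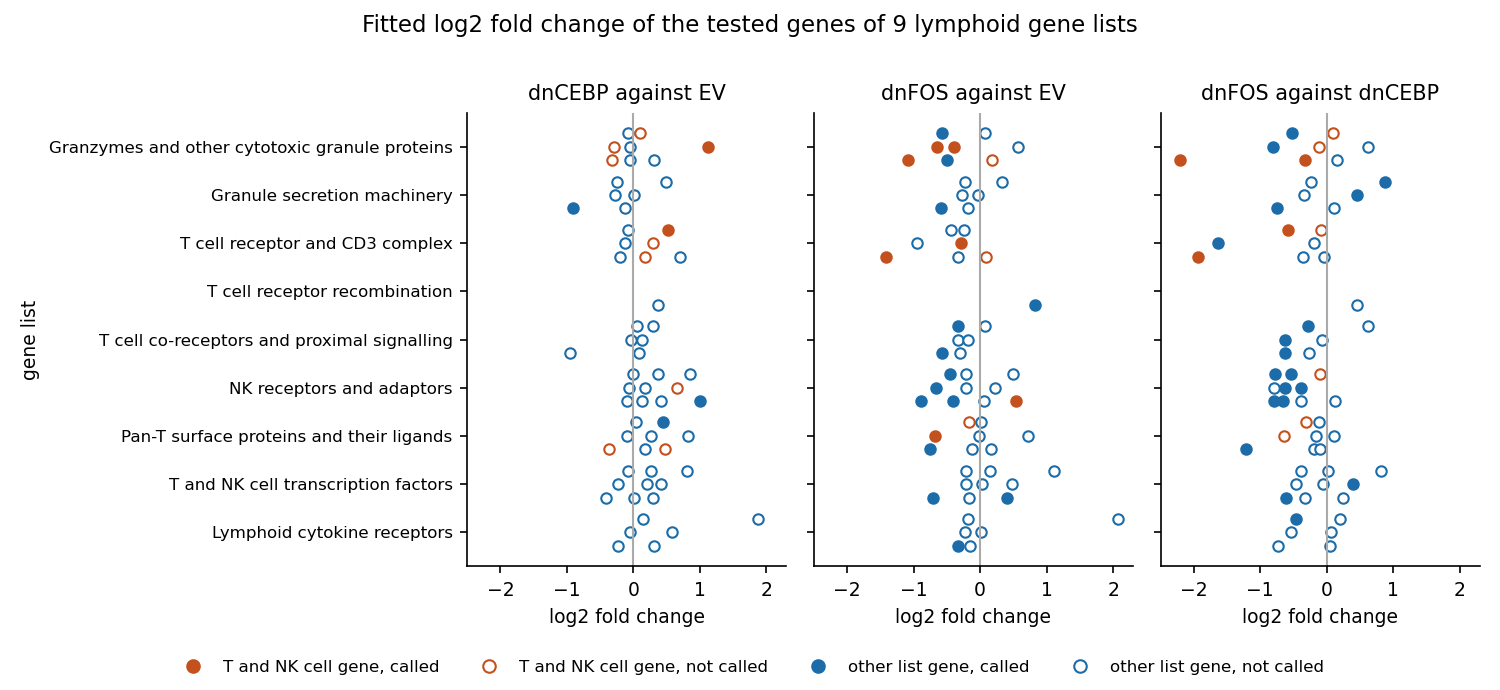
Fitted log2 fold change of the tested genes of the 9 lymphoid lists in each comparison, with the 10 genes in orange and the other genes in blue; filled points passed the test, and points are spread vertically only to keep them apart. LAT, whose 2 dnFOS libraries were at 0, and 1 gene not reported here are not drawn. Filled points lie mostly left of 0 in the panels for dnFOS against EV and dnFOS against dnCEBP.

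**Figure D5:**
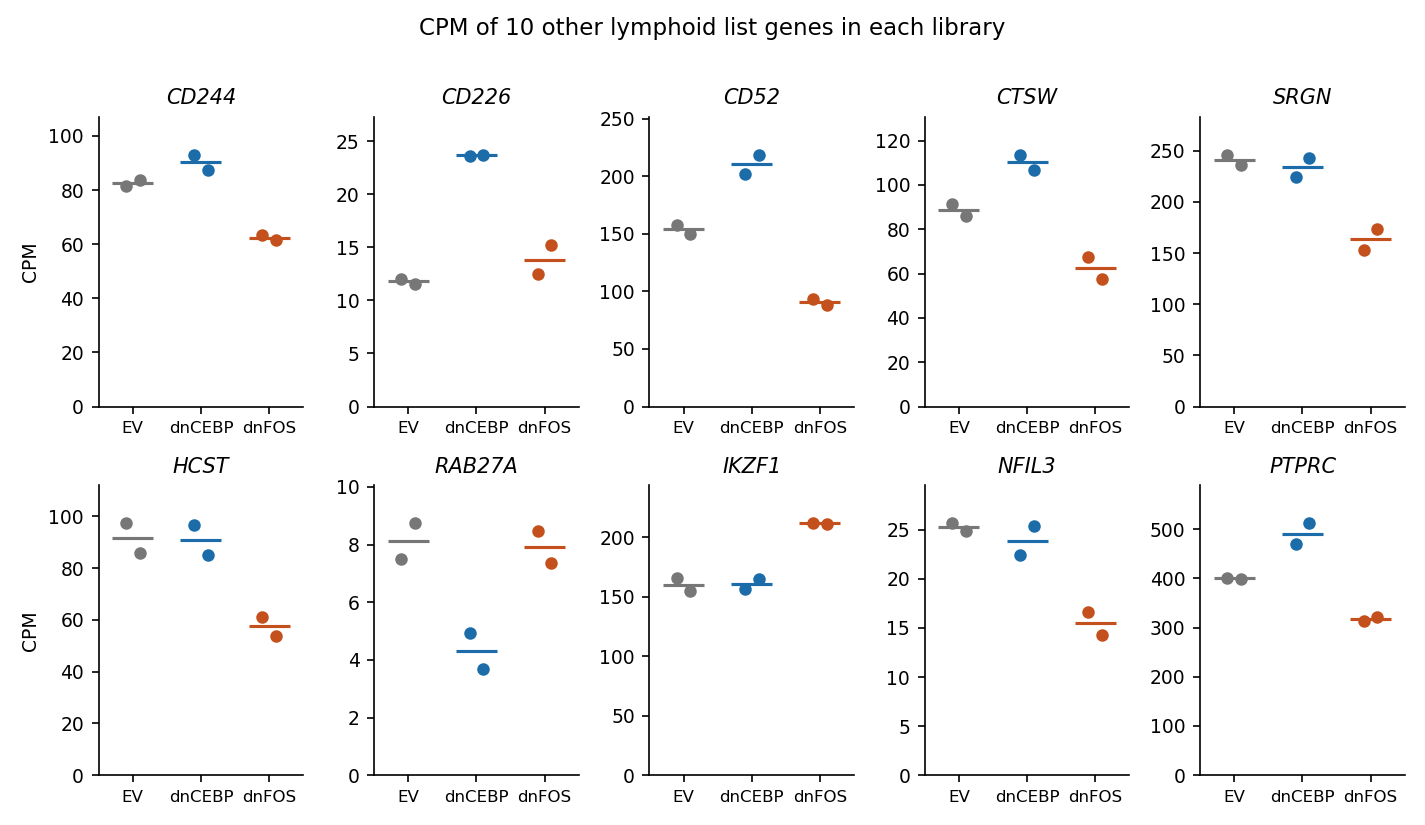
Level in CPM of 10 other list genes that passed a test, with each point a library, each bar a group mean and each panel its own axis from 0. CD52, CTSW, PTPRC and CD244 are highest in dnCEBP and lowest in dnFOS, though of these only CD52 was called in dnCEBP against EV. CD226 is raised in dnCEBP, and IKZF1 is the only one called higher in dnFOS than in EV.

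The same letters were searched in the 18 windows found for the 23 other list genes that passed a test. AP-1 letters stood in 4 of these 18 windows, against 6.57% of all windows, and in none of the 6 windows of the T and NK cell genes above. These shares were not compared by a test, and at 6.57% a lack in 6 windows is no contrast. The 4 matches are shown with 10 bases on either side (RefSeq, GRCh38.p14), with the AP-1 letters in capitals, because dnFOS blocks AP-1 proteins. The search left the middle base open, and the CD226 match reads TGATTCA. Binding to these stretches was not tested. The LYST stretch is chr1:235883822-235883848 (minus strand), that of LAT chr16:28984715-28984741 (plus strand), that of CD226 chr18:69956995-69957021 (minus strand) and that of CD244 chr1:160862942-160862968 (minus strand).
LYST: cagggaattaTGACTCAtaggagccac
LAT: agtgtgaccgTGAGTCAcgcccctgct
CD226: gaaatattagTGATTCActtcagttgc
CD244: actggctttgTGAGTCActgtgaactt
In dnFOS, LAT and CD244 were lower than in EV, while CD226 and LYST had values of 0.22 ± 0.15 and 0.33 ± 0.15 that did not pass. The wider C/EBP form stood in 5 of the 18 windows and the RUNX letters in 3, and the CRE, composite and palindrome letters in none.

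The closest protein-coding genes of the 7 T and NK cell genes called in dnFOS were not called there themselves. Besides the silent neighbours of GZMA and CD3D, DAD1 after TRDC had 692 to 2075 counts and no call (-0.07 ± 0.09 in dnFOS, adjusted p = 0.682). APMAP after CST7 (-0.15 ± 0.11, adjusted p = 0.396), CLEC2D after KLRB1 (0.02 ± 0.20, adjusted p = 0.969), CSNK1D before CD7 (-0.14 ± 0.12, adjusted p = 0.489) and CLDND2 before NKG7 (-0.44 ± 0.61, adjusted p = 0.687) were not called in dnFOS. The remaining closest genes, SYNDIG1, PZP, OR4E1, SECTM1 and LIM2, did not pass the filter. PRF1 was not called, but ADAMTS14 after it was lower in dnFOS (-1.04 ± 0.27, adjusted p = 0.00841), a gene named after its values were seen.

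Across the 6 libraries, the genes whose log2 CPM was most like that of GZMA were CARD8-AS1 (Pearson r = 0.998), DNAJB1 (0.997), S100A11 (0.995), FGGY (0.992) and TMSB10 (0.992). They come from 12805 genes compared, of which 209 had an r over 0.95, and the 6 libraries share 3 groups and their depth, so the values are a description. Their changes were smaller than those of GZMA. The log2 fold change ran from 0.21 to 0.50 in dnCEBP and from -0.53 to -0.16 in dnFOS.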

How the data were processed

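Expression was measured by RNA-seq in 6 KO52 libraries. The authors deposited a table of counts for each library, as whole numbers per gene ID without normalization. Per the labels, the authors depleted total RNA of ribosomal RNA, sequenced paired-end reads, and used Trimmomatic, HISAT2 and featureCounts of Subread with the build hg38. Versions, annotation and strand use are not given in the sources used here. The sample titles gave the group and replicate of each library.

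Gene IDs were matched to GENCODE 29 on GRCh38 (58394 of 60612), which gave symbols, coordinates and exonic lengths. Of 27870 genes with a count, filterByExpr (minimum count 10) kept 15395. The counts were scaled by TMM and fitted in edgeR 4.0.16 (R 4.3.3) with robust quasi-likelihood to all 6 libraries without covariates, leaving 3 residual degrees of freedom. The 3 contrasts were tested two-sided with Benjamini-Hochberg adjustment over all genes tested and called at an adjusted p under 0.05. The study's methods name limma-voom for other RNA-seq data, and it is an alternative here. CPM and RPKM were computed on the scaled sizes, and a prior count of 2 was used for log2 CPM. Floors cover counting error only.

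The 10 genes and the lists were chosen with earlier results of these data known. Named genes were the 10, every list gene called in a comparison, the tested gene with the highest mean CPM in each list, the closest protein-coding genes of called members, and the 5 genes most like GZMA in log2 CPM. A gene of the lists that passed a test is not reported here, though it stands in the counts. A few genes that did not pass the filter or a test were named to complete a list or a pair. Motifs were searched on both strands of the 250 bases before RefSeq starts. For the 10 genes and the called list genes, only the first start listed for each gene was used. The shares of all windows cover every start, so they are not on the same basis.

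Alternatives were to keep all genes with a count, to keep genes with a mean of 1 CPM or more, to scale by median-of-ratios size factors or by totals, to fit only the 2 groups compared, and to use DESeq2 1.42.0, limma-voom (limma 3.58.1), the replicate number as a block, a trend on GC content and length removed by a spline, and each library left out in turn. A group left with 1 library was assumed to vary like the others. The scripts were tested on simulated data with known changes.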

Additional observations from a re-analysis of the deposited data

How the results depend on the processing

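No direction reversed among called values. Of 13 calls of the 10 genes, 7 were made in every setting (the 3 of GZMA, CST7 and TRDC in dnFOS, and CD3D and TRDC between the peptides), and 6 were lost in at least 1. For the other list genes 21 of 41 calls were made in every setting. With 2 libraries a group, a fit without 1 of them rests on a lone library.

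The 10 genes had 2 calls in dnCEBP, 1 with library totals alone or DESeq2, 5 with only the 2 groups compared, and 1 to 5 with a library left out. In dnFOS they had 7 calls, 4 with library totals alone, limma-voom or the GC and length trend removed, and 3 to 7 with a library left out. Between the peptides they had 4, and 3 to 4 with a library left out. The other list genes had 4 calls in dnCEBP and 1 to 7 with a library left out, 16 in dnFOS (11 to 17) and 21 between the peptides (16 to 22). Over all genes dnCEBP had 165 calls, 255 without a low-count filter, 257 with only the 2 groups, 262 with the GC and length trend removed and 33 to 314 with a library left out. For dnFOS the 2309 calls became 972 to 2426, and between the peptides the 2259 calls became 1182 to 2262, with a library left out.

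Scaling by library totals alone moved the median of all genes (log2) to 0.10 in dnFOS and 0.14 between the peptides, and took the lower share of calls from 51.7% to 26.2% and from 53.4% to 25.4%. With library totals alone, all genes had 127 calls in dnCEBP, 2581 in dnFOS and 2815 between the peptides. In dnFOS all genes had 1907 calls by limma-voom and 1997 with the GC and length trend removed. By DESeq2 all genes had 142 calls in dnCEBP.

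The samples share replicate numbers, but nothing in the labels says that they are paired. Deviations of same-numbered libraries correlated by 0.02, 0.03 and 0.09 between groups, which does not settle whether they were. With the replicate block the 10 genes had 5 calls in dnCEBP, 7 in dnFOS and 4 between the peptides. The other list genes had 8, 17 and 23 in this order. All genes had 488, 3172 and 3013, more than without the block in each comparison.

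Depth limits CD2, TRAC, CD247 and LAT, whose counts did not exceed 100 in any library.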
